A study of Rattus norvegicus with 9 samples.

Results

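Genes that sense RNA or DNA in the wrong compartment, pass on that signal or limit it were examined in the vestibular epithelium of rats. They were the 10 genes Ddx58 (RIG-I), Ifih1 (MDA5), Dhx58 (LGP2), Tlr3, Zbp1, Mavs, Tmem173 (STING), Trex1, Adar and Samhd1, taken by symbol, and all 10 were found among the 32883 genes of the count table. There were 9 libraries, each from the pooled 6 cristae and 2 utricles of a single male Long-Evans rat. The 3 IDPN-3wk rats and the 3 IDPN-7wk rats drank water with IDPN (3,3′-iminodipropionitrile, a compound that damages the sensory hair cells, or HCs, of the inner ear) at 20 mM for 3 or 7 weeks, and the 3 control rats drank water without it. The same control rats served both exposed groups, so the comparisons with control are not independent of each other. The control group held rats killed at either time, and the labels do not say which, so age and exposure time cannot be told apart. In the sample titles all 3 controls carry a number that no exposed rat carries, and its meaning is not given, so whatever it marks cannot be told apart from exposure. No transgene, deletion or other agent was used in any of these groups. The tissue is a mixture of HCs, supporting cells, nerve endings, glia, vessels and resident immune cells, and in such bulk samples fewer cells of a type and less RNA per cell cannot be told apart.

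RIG-I and MDA5 are helicases that bind double-stranded or uncapped RNA in the cytosol and then engage MAVS on mitochondria, whereas cytosolic DNA acts through the enzyme cGAS on STING. Both routes lead through the kinases TBK1 and IKKε to the factors IRF3 and IRF7 and to type I interferon, which acts through its receptor on many genes, those of several sensors among them. Nucleases and editing enzymes such as TREX1, SAMHD1 and ADAR keep the cell's own nucleic acids from starting this response.

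Promoter sequences are shown first because interferon acts on genes through short DNA elements. RefSeq promoters of the GRCr8 build, which run from 250 bases before to 50 bases after the start of a gene, were found for 6 members, namely Ifih1, Tlr3, Mavs, Tmem173 (listed as Sting1), Trex1 and Samhd1. Ddx58, Dhx58, Zbp1 and Adar had no entry. The core of the interferon-stimulated response element (ISRE), searched as GAAANNGAAA on both strands, occurred in 3.92% of all 33469 promoters of the same length. The interferon gamma-activated site (GAS), searched as TTCNNNGAA, which reads alike on both strands, occurred in 8.87% of them. Of the 6 members, Ifih1 alone held an ISRE core, and Samhd1 alone held a GAS. The first sequence is the whole Ifih1 window, at chr3:67683919-67684218 on the minus strand, with its ISRE core in capitals. The Samhd1 stretch, from the window chr3:166214361-166214660 on the minus strand, has its GAS in capitals. The other stretches come from genes of the same pathway that are described further on, Eif2ak2 (window chr6:21940904-21941203, plus strand) and Irf7 (window chr1:205799974-205800273, minus strand, match on the opposite strand), with the ISRE core in capitals.
Ifih1: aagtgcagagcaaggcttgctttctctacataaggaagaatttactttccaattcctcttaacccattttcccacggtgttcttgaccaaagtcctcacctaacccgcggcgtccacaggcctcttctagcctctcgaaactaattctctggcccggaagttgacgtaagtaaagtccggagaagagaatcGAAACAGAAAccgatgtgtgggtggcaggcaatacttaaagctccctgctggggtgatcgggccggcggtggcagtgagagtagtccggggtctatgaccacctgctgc
Samhd1: actccgccctTTCGGAGAAacataagggc
Eif2ak2: agtccgccggGAAAACGAAAcagagagaac
Irf7: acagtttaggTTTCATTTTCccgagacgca

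Counted from the start of the gene, the first base of the match lay at -59 in Ifih1, -153 in Samhd1, -16 in Eif2ak2 and -69 in Irf7. An ISRE core was present in 20 of the 27 promoters matched among 35 interferon-stimulated genes (74.1%), in 2 of 12 among other sensors and in none of 14 among adaptors, ligases and kinases. A match is a description of these letters and was not tested as a binding site.

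The plot of CPM by library shows the level of each member in every rat. Library totals ran from 31100118 to 46018385 counts, and 3 counts corresponded to 0.0611 to 0.101 CPM, the unit used here for counts relative to the TMM-normalised size of their library. This level covers counting error only, since the PCR copies carried no molecular identifiers. Control replicate 3 and IDPN-3wk replicates 1 and 2 stood apart, with 15387 to 15498 genes detected at equal depth against 16834 to 17312 in the other 6 libraries. All 3 IDPN-7wk libraries were among these 6. Expression was tested for 15517 genes, which included every member but Zbp1. A gene was called a DEG if its adjusted p was under 0.05 in edgeR's quasi-likelihood test and its fold change was above 1.5. Markers of the labelled tissue were present, and the summed level of 11 HC genes was 1870 to 2005 CPM in controls and that of 11 supporting cell genes 14930 to 15370 CPM.

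**Figure D1:**
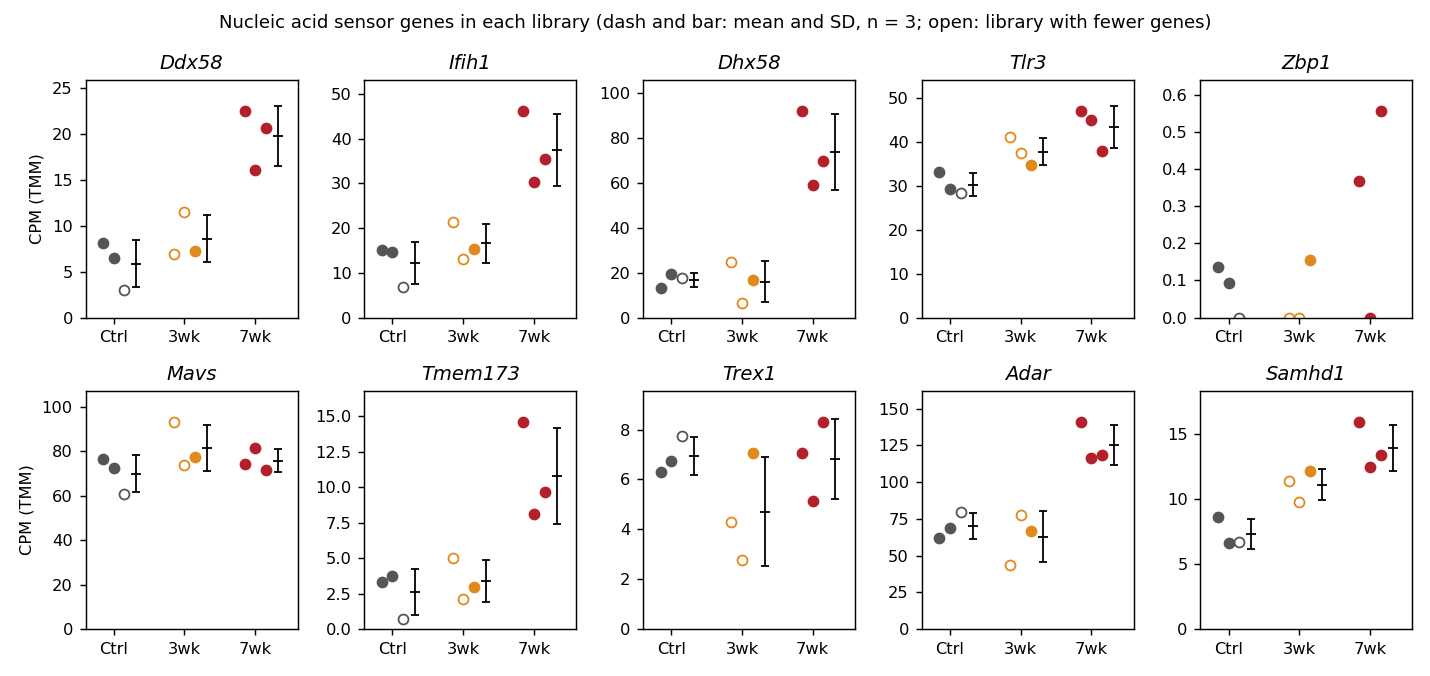
CPM after TMM normalisation (vertical axis, from 0, a scale for each gene) of the 10 genes in each library of the control (Ctrl), IDPN-3wk (3wk) and IDPN-7wk (7wk) groups. Points are single rats, open points are the 3 libraries with fewer genes, and the dash and bar give the mean and SD (n = 3; not drawn for Zbp1). For Ddx58, Ifih1, Dhx58, Tlr3, Tmem173, Adar and Samhd1 the 3 IDPN-7wk points lie above the 3 controls.

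After 7 weeks of IDPN, 5 of the 9 tested members were upregulated relative to control, and none was downregulated. In the same comparison 2.00% of all tested genes were called higher and 3.13% lower. The 5 were the RNA sensors Ddx58, Ifih1 and Dhx58 and the limiters Adar and Samhd1. For 7 of the 9, all IDPN-7wk libraries were above all controls, against 17.2% of all tested genes. The median log2 fold change of the 9 members was 0.93. After 3 weeks no member was called by edgeR or by DESeq2. In edgeR 2 of the 9 had an unadjusted p under 0.05, as did 2444 of all 15517 tested genes. In that comparison 0.438% of all genes were called higher and 1.21% lower.

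The largest changes among the called members were those of the 3 RIG-I-like receptors. The product of Ddx58 is RIG-I, a sensor of short RNA with a 5′ triphosphate. Ddx58 stood at 8.09, 6.45 and 3.04 CPM in the 3 controls. It measured 6.95, 11.5 and 7.29 CPM in the IDPN-3wk rats and 22.5, 16.1 and 20.6 CPM in the IDPN-7wk rats. The IDPN-7wk values were higher than any other, whereas those at 3 weeks overlapped with the controls. At 7 weeks the log2 fold change was 1.75 (SE 0.365, adjusted p = 0.0194 in edgeR), or 3.37-fold with a 95% interval of 1.92 to 5.92. At 3 weeks it was 0.55 (SE 0.358, adjusted p = 0.5). The call at 7 weeks was lost without control replicate 2 (adjusted p = 0.0645), IDPN-7wk replicate 1 (0.0797) or IDPN-7wk replicate 3 (0.07), with log2 fold changes of 1.83, 1.65 and 1.72.

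Ifih1 encodes MDA5, which binds long double-stranded RNA. Its level was 15.2, 14.7 and 6.78 CPM in controls, 21.5, 13.0 and 15.4 CPM in IDPN-3wk rats, and 46.3, 30.4 and 35.6 CPM in IDPN-7wk rats. As for Ddx58, the lowest library of all was control replicate 3, one of the libraries with fewer genes, and the IDPN-7wk values did not overlap with the rest. Ifih1 changed by 1.62 on the log2 scale at 7 weeks (SE 0.324, adjusted p = 0.0161 in edgeR), or 3.07-fold (95% interval 1.86 to 5.05), while the value at 3 weeks was 0.45 (SE 0.319, adjusted p = 0.544). Of the 6 libraries compared at 7 weeks, only the omission of IDPN-7wk replicate 1 ended the call (log2 fold change 1.43, adjusted p = 0.0743).

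Dhx58 encodes LGP2, a relative of both that lacks the signalling domains and tunes their activity. Controls had 13.1, 19.4 and 17.8 CPM, and IDPN-3wk rats were scattered on both sides of them, with 24.7, 6.40 and 16.8 CPM. IDPN-7wk rats had 91.9, 58.9 and 69.6 CPM, the lowest of which was above the highest of the other 6 libraries. This was the largest change among the members that were called, with a log2 fold change of 2.13 (SE 0.405, adjusted p = 0.0125 in edgeR), or 4.39-fold (95% interval 2.35 to 8.20). At 3 weeks the log2 fold change was -0.06 (SE 0.393, adjusted p = 0.964). The call at 7 weeks was lost without control replicate 1 (1.98, adjusted p = 0.0609) or IDPN-7wk replicate 1 (1.94, adjusted p = 0.0553).

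Tlr3, a receptor for double-stranded RNA that sits in endosomes rather than the cytosol, differed less and was not called. It had 33.1, 29.2 and 28.3 CPM in controls, 41.0, 37.4 and 34.7 CPM at 3 weeks, and 47.0, 44.8 and 37.9 CPM at 7 weeks. Both exposed groups lay wholly above the controls, as 8.78% of all tested genes did at 3 weeks, and overlapped with each other. Log2 fold changes were 0.32 at 3 weeks (SE 0.141, adjusted p = 0.307) and 0.52 at 7 weeks (SE 0.141, adjusted p = 0.0615 in edgeR).

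Zbp1, a sensor of Z-form nucleic acids that can engage RIPK3, was hardly detected. The controls held 5, 3 and 0 counts, the IDPN-3wk libraries 0, 0 and 5, and the IDPN-7wk libraries 18, 0 and 22. It did not pass the filter on low counts, the groups overlapped, and a difference was not detectable at this depth.

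Of the adaptors, Mavs and Tmem173 differed in pattern. Mavs, through which RIG-I and MDA5 signal, measured 76.6, 72.7 and 60.6 CPM in controls, 93.2, 73.7 and 77.3 CPM at 3 weeks and 74.1, 81.6 and 71.8 CPM at 7 weeks. The 3 groups overlapped. Fold changes on the log2 scale were 0.22 at 3 weeks (SE 0.131, adjusted p = 0.457) and 0.12 at 7 weeks (SE 0.131, adjusted p = 0.719). The 95% interval at 7 weeks ran from 0.886- to 1.33-fold, so a change as large as the 1.5-fold threshold lay outside it.

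Tmem173, the STING adaptor of the DNA route, had a large but uncertain difference. Its level was 3.34, 3.76 and 0.731 CPM in controls, 5.01, 2.12 and 2.95 CPM at 3 weeks and 14.6, 8.12 and 9.67 CPM at 7 weeks. Every IDPN-7wk value was more than the highest value of the other groups, but the controls were spread widely, control replicate 3 being the lowest. At 7 weeks its log2 fold change was 2.05 (SE 0.583, adjusted p = 0.0727 in edgeR), with an interval of 1.68- to 10.2-fold. It was called by DESeq2 (adjusted p = 0.00609) and, in edgeR, with at least 10 counts required in every library (0.0422). In edgeR it stayed uncalled whichever single library was left out (adjusted p 0.0577 to 0.273). The largest of these was found without IDPN-7wk replicate 1. It was also uncalled with the set of libraries with fewer genes as a covariate (0.0989). With those 3 libraries left out, the log2 fold change was 1.60. The sensor upstream of STING, cGAS, averaged 0.396 ± 0.391 CPM in controls, 0.256 ± 0.444 at 3 weeks and 0.869 ± 0.155 at 7 weeks (SD, n = 3; adjusted p = 0.803 at 7 weeks in edgeR).

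The limiters split as well. Adar encodes the enzyme that edits adenosine to inosine in double-stranded RNA and so hides it from MDA5. Controls had 62.0, 68.6 and 79.7 CPM, IDPN-3wk rats 43.8, 78.0 and 66.6 CPM, and IDPN-7wk rats 141, 117 and 118 CPM. Control and IDPN-3wk values overlapped and IDPN-7wk values stood above both. Adar rose by 0.84 on the log2 scale at 7 weeks (SE 0.195, adjusted p = 0.0329 in edgeR), or 1.79-fold (95% interval 1.32 to 2.42), while its log2 fold change at 3 weeks was -0.16 (SE 0.195, adjusted p = 0.754).

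Samhd1, a phosphohydrolase that depletes deoxynucleotides, was the only called member with IDPN-3wk values between those of the other groups. It had 8.65, 6.61 and 6.70 CPM in controls, 11.4, 9.80 and 12.2 CPM at 3 weeks and 15.9, 12.5 and 13.4 CPM at 7 weeks, with no overlap between any of the 3 groups. The log2 fold change was 0.60 at 3 weeks (SE 0.220, adjusted p = 0.216) and 0.93 at 7 weeks (SE 0.221, adjusted p = 0.0350 in edgeR), or 1.90-fold at 7 weeks (95% interval 1.35 to 2.68). The calls of Adar and Samhd1 at 7 weeks were the least firm, since each was lost when any of the control or IDPN-7wk libraries was left out. The log2 fold change then stayed between 0.74 and 0.94 for Adar (adjusted p 0.052 to 0.137) and between 0.82 and 1.07 for Samhd1 (adjusted p 0.0576 to 0.155). With the set of libraries with fewer genes as a covariate, the adjusted p was 0.0553 for Adar and 0.0633 for Samhd1.

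Trex1, the main exonuclease for DNA in the cytosol, was not called. It had 6.28, 6.73 and 7.76 CPM in controls, 4.30, 2.76 and 7.07 CPM at 3 weeks and 7.07, 5.12 and 8.30 CPM at 7 weeks. The groups overlapped, with the lowest values in the IDPN-3wk libraries with fewer genes. The log2 fold change was -0.55 at 3 weeks (SE 0.372, adjusted p = 0.512) and -0.02 at 7 weeks (SE 0.369, adjusted p = 0.988), and the interval at 7 weeks, 0.558- to 1.74-fold, included changes beyond the threshold in both directions.

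**Figure D2:**
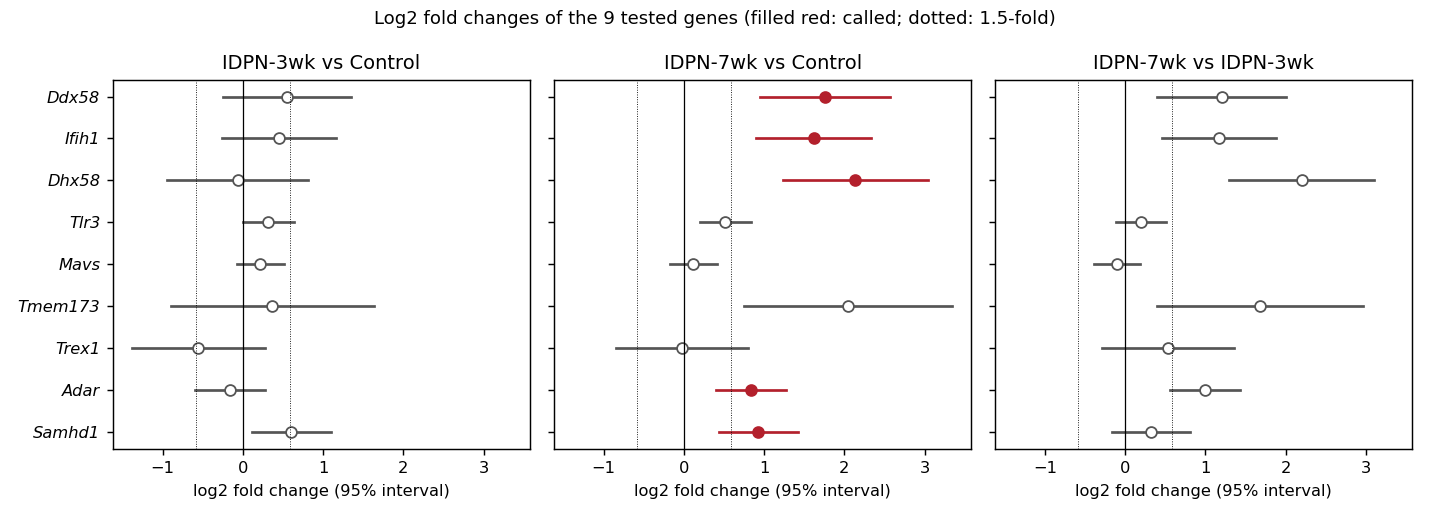
Log2 fold changes (points) with 95% intervals (lines) of the 9 tested genes in the 3 comparisons, from edgeR's quasi-likelihood fit. Filled red points are called genes and dotted lines mark a 1.5-fold change. Called genes appear only in the middle panel, IDPN-7wk against control, while the interval of Mavs lies near 0 in each comparison.

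A comparison of the exposed groups with each other asked whether the members changed between these times. None of the 9 was called by edgeR, while DESeq2 called 4. In edgeR 5 of the 9 had an unadjusted p under 0.05, as did 2140 of all 15517 tested genes. Of all tested genes, edgeR called 0.348% higher. In either direction DESeq2 called 585 genes, against 75 by edgeR. Dhx58 came nearest, with a log2 fold change of 2.20 (SE 0.406, adjusted p = 0.0518 in edgeR), followed by Adar with 1.00 (SE 0.196, adjusted p = 0.064). The values were 1.17 for Ifih1 (adjusted p = 0.163), 1.20 for Ddx58 (0.195), 1.68 for Tmem173 (0.24) and 0.33 for Samhd1 (0.559). For these 6 genes all IDPN-7wk libraries were above all IDPN-3wk libraries, which held for 12.1% of all tested genes. The differences between 3 and 7 weeks were thus not established by edgeR. DESeq2 called Dhx58 (adjusted p = 4.97e-06), Adar (0.000257), Ifih1 (0.016) and Ddx58 (0.0351). In edgeR, omission of IDPN-3wk replicate 1 gave a call for Dhx58 (adjusted p = 0.0371), and omission of IDPN-3wk replicate 2 gave calls for Dhx58 (0.0314) and Adar (0.048).

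Single libraries weighed on these results. IDPN-7wk replicate 1 had the highest level of all 9 libraries for 7 of the 9 tested members, and control replicate 3 the lowest for 5. Without IDPN-7wk replicate 1, no member was called at 7 weeks, although the log2 fold changes of the 5 called members remained between 0.74 and 1.94. Calls over all genes at 7 weeks also fell in that fit, from 796 to 432. Omission of any other control or IDPN-7wk library left 506 to 600 calls over all genes. Leaving out the 3 libraries with fewer genes left 1 IDPN-3wk library in the fit, so only effect sizes are given here. The log2 fold changes at 7 weeks were then 1.44 for Ddx58, 1.32 for Ifih1 and 2.18 for Dhx58. They were 0.94 for Adar, 0.86 for Samhd1 and 1.60 for Tmem173. Among libraries of the set with more genes alone, differences of mean log2(CPM + 2) between the 3 IDPN-7wk and 2 control libraries were 1.23 for Ddx58, 1.20 for Ifih1, 2.05 for Dhx58, 0.92 for Adar and 0.73 for Samhd1. At 3 weeks the 2 sets of libraries gave unlike values. For Ddx58, the difference between IDPN-3wk and control was 0.0081 in the set with more genes (1 against 2 libraries) and 1.13 in the set with fewer genes (2 against 1). For Ifih1 the corresponding values were 0.041 and 1.10, and for Tmem173 -0.16 and 0.98.

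Genes around the members in the sensing pathway were examined in the same way. There were 51 tested genes in 4 lists (other sensors, adaptors with ligases and kinases, transcription factors, and limiters). At 7 weeks 4 of the 51 were upregulated and 1 was downregulated, against 2.00% and 3.13% of all tested genes. Their median log2 fold change was 0.17, against 0.0097 over all tested genes. None was called at 3 weeks by edgeR. An unadjusted p under 0.05 in edgeR was found for 8 of the 51, and for 2444 of all 15517 tested genes. DESeq2 called 2 of them at 3 weeks, Ripk3 higher and Ikbke lower, and 826 genes in all. Among 11 other sensors, 2 were called at 7 weeks. Eif2ak2, the kinase PKR that is activated by double-stranded RNA and stops translation, went from 44.9 ± 3.50 CPM in controls to 66.8 ± 11.3 at 3 weeks and 132 ± 7.77 at 7 weeks (SD, n = 3), with a log2 fold change of 1.56 at 7 weeks (SE 0.135, adjusted p = 0.000191 in edgeR). Zc3hav1, the antiviral protein ZAP that binds CpG-rich RNA, had a log2 fold change of 0.74 (SE 0.136, adjusted p = 0.0103). The medians of this list were 0.01 at 3 weeks and 0.63 at 7 weeks.

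Among 18 adaptors, ligases and kinases only Ripk3 was called. It encodes a kinase of necroptosis, and its level was 3.31 ± 0.688 CPM in controls, 6.61 ± 0.369 at 3 weeks and 12.0 ± 2.30 at 7 weeks (SD, n = 3; log2 fold change 1.86, SE 0.277, adjusted p = 0.00367 at 7 weeks in edgeR). Of 6 transcription factors only Irf7, the interferon regulatory factor that amplifies the response, was called. It averaged 14.7 ± 6.46, 22.7 ± 11.7 and 110.5 ± 35.1 CPM in the 3 groups (SD, n = 3), with a log2 fold change of 2.91 (SE 0.415, adjusted p = 0.00307 in edgeR). Of 16 limiters, none was upregulated and Dnase1, a secreted nuclease that degrades DNA outside cells, was downregulated by a log2 fold change of -1.59 (SE 0.252, adjusted p = 0.00499 in edgeR). The median of the limiters at 7 weeks was 0.02 and that of the adaptors, ligases and kinases 0.15.

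Downstream of the sensors, Stat2 and Irf9 were upregulated at 7 weeks. They encode transcription factors of the type I interferon response and rose by 1.28 and 1.41 on the log2 scale, with adjusted p-values of 0.000622 and 0.00223 in edgeR. At 3 weeks neither was called. The genes of the receptor and its kinases, Ifnar1, Ifnar2, Jak1 and Tyk2, were not called at either time (adjusted p at 7 weeks 0.104 to 0.959 in edgeR). Of 34 tested interferon-stimulated genes, 24 were upregulated at 7 weeks, against 2.00% of all tested genes. The median of the list was 1.51 on the log2 scale, against 0.0097 over all tested genes. Between 3 and 7 weeks 17 of the list were called, all higher, against 0.348% of all tested genes called higher. The smallest adjusted p-values at 7 weeks were those of Ifi27 (log2 fold change 1.95), Ifitm3 (2.08), Rtp4 (2.65) and B2m (1.03). Ifitm3, a membrane protein that hinders viral entry, was the 1 gene of this list that edgeR called at 3 weeks (0.80, SE 0.142, adjusted p = 0.0214). DESeq2 called 6 of the list at 3 weeks, Ifitm1, Ifitm3, Oas1a and Usp18 higher and Mx1 and Oas2 lower; Oas2 had no counts in the IDPN-3wk libraries.

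Transcripts of the interferons were at or near 0. Of 11 interferon genes in the table, 5 had any count and none passed the filter. Ifnb1 and Ifng had 0 counts in all 9 libraries. The highest count was 20, for Ifne in control replicate 1.

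**Figure D3:**
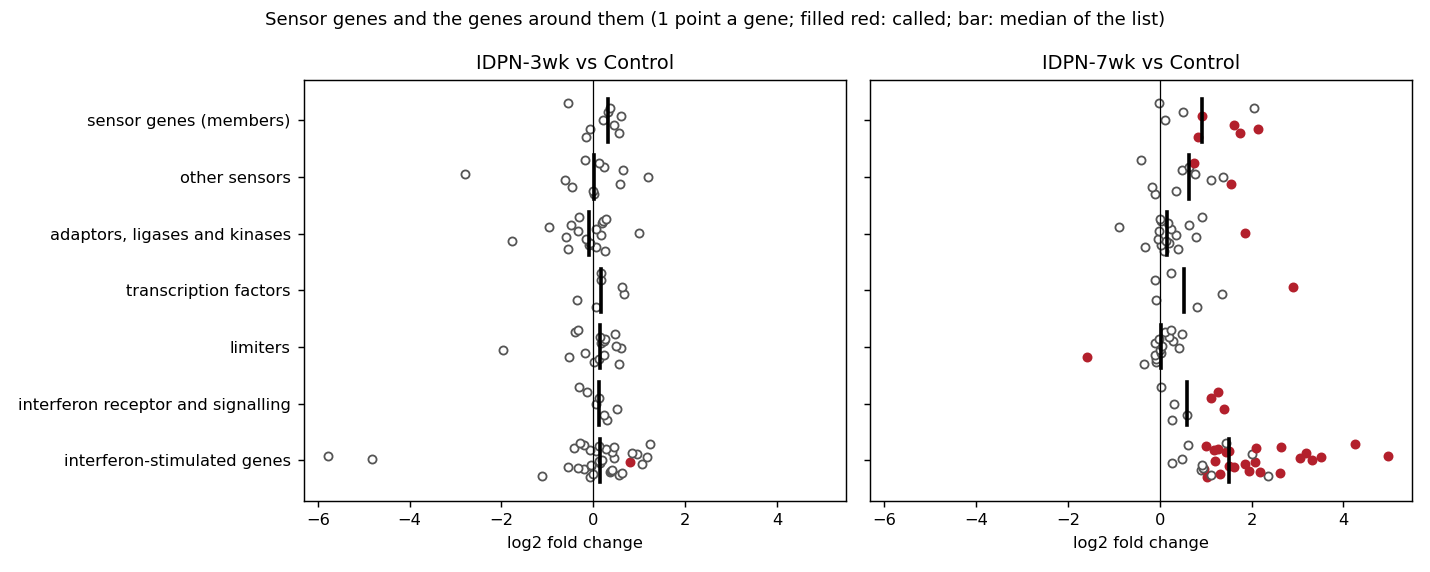
Log2 fold changes (horizontal axis) in IDPN-3wk and IDPN-7wk rats relative to the same controls, with a point for each tested gene of the members and 6 lists; filled red points are called genes and the black bar is the median of a list. At 7 weeks, called genes are 5 of 9 members and 24 of 34 interferon-stimulated genes, against 4 upregulated and 1 downregulated of 51 in the 4 pathway lists between them.

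The genes with the level profile most like that of each called member were found as those with the smallest root mean square (RMS) distance between centred log2(CPM + 1) values over the 9 libraries, among 11341 genes. For Ddx58 they were Cebpd, Cfp and Tmsb10 (RMS 0.236 to 0.302, against a median of 0.811 over all candidates). For Ifih1 they were Parp14, Tmsb10 and Mt2A (0.220 to 0.234, median 0.790). Those nearest to Dhx58 were Uba7, the enzyme that activates ISG15, Irgm and Rsad2 (0.408 to 0.444, median 1.16). Gbp5, Apol9a and Ifi44 were nearest to Adar (0.137 to 0.168, median 0.553), and Tceal9, Ucp2 and Slc39a8 to Samhd1 (0.120 to 0.135, median 0.448). Likeness is over libraries of 3 groups that share depth and tissue composition, and is given as a description.

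Markers of cell types moved in the same libraries. The summed level of 13 macrophage or microglia markers was 119 to 175 CPM in controls. It was 99.1 to 214 CPM at 3 weeks and 313 to 388 CPM at 7 weeks. For 13 of 13 the IDPN-7wk libraries were above the controls, as they were for 17.2% of all tested genes. Of these 13 markers 2 were called at 7 weeks, against 2.00% of all tested genes called higher. They were C1qb with a log2 fold change of 1.70 (adjusted p = 0.00958 in edgeR) and Cd14 with 1.00 (0.0209). The 9 T or NK cell markers summed to 10.7 to 11.2 CPM in controls, 6.62 to 9.50 CPM at 3 weeks and 15.6 to 28.2 CPM at 7 weeks. Only 3 of these 9 markers passed the filter on low counts, and none of the 3 was called at 7 weeks. The macrophage and the T or NK cell sums were both highest in IDPN-7wk replicate 1, the library in which 7 of the 9 tested members were highest. Markers of B cells and of neutrophils were near 0 at 7 weeks, at up to 0.591 and 0.774 CPM. The HC sum was 1870 to 2005 CPM in controls and 994 to 1172 CPM at 7 weeks, and the sum of 6 Schwann cell markers was 9514 to 11966 CPM and 3245 to 6814 CPM. Sums for endothelium were 388 to 421 CPM in controls and 353 to 541 CPM at 7 weeks. The part of these shifts in the levels of the sensor genes was not tested.

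**Figure D4:**
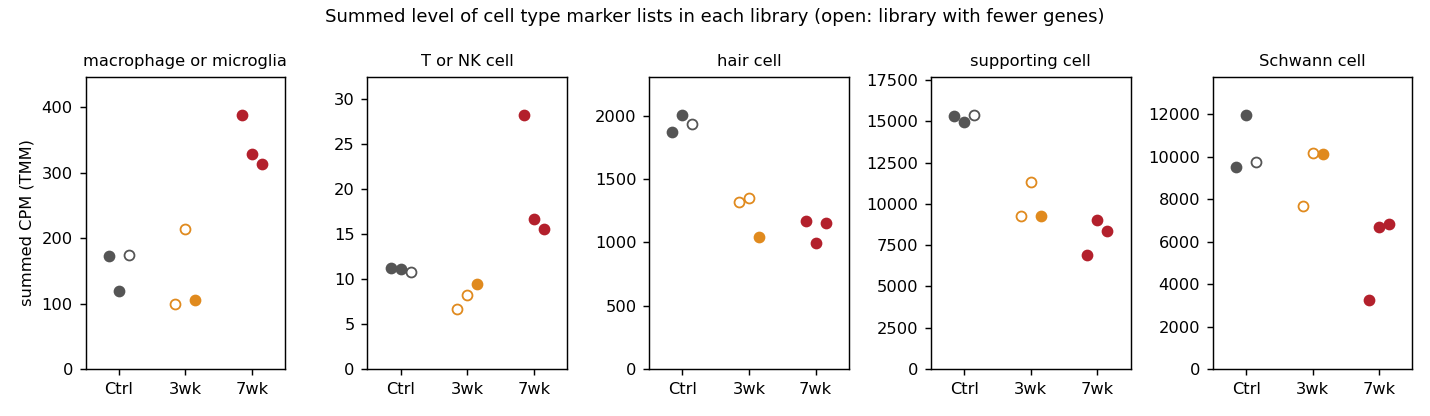
Summed CPM after TMM normalisation (vertical axis, from 0) of 5 lists of cell type markers in each library, with open points for the 3 libraries with fewer genes. Macrophage and T or NK cell sums are above the controls in all 3 IDPN-7wk rats, and HC, supporting cell and Schwann cell sums are below them.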

How the data were processed

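Single rats gave 1 library each, made by SMARTseq2, a poly(A)-primed protocol with PCR amplification. Per the submitters' processing notes, the authors mapped reads with STAR 2.5.3a to Rnor6.0 and quantified genes with RSEM 1.3.0. The deposited values are the authors' estimated counts (expected counts) as whole numbers, not normalised. The strand used in counting was not given in the sources used here, so overlapping and antisense genes are uncertain. Replicates were numbered here in accession order. No libraries of a group shared their counts (chi-square per gene 18.7 or more). Replicates are separate rats.

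Genes kept by filterByExpr (15517) were normalised by TMM and tested with the robust quasi-likelihood test of edgeR 4.0.16 in R 4.3.3, in 1 fit of 9 libraries with a mean per group (6 residual degrees of freedom), with Benjamini-Hochberg adjustment over all genes. Genes past an adjusted p of 0.05 and a 1.5-fold change were called. An exact permutation test of 3 against 3 cannot give p below 0.1. Named genes are all members, up to 4 called genes per pathway list by adjusted p at 7 weeks, genes called lower, up to 3 called marker genes, and the 3 nearest profiles; a gene that meets this rule is not reported here. Genes called by DESeq2 alone and the interferon receptor and kinase genes were named after their values were seen. Members and lists were chosen with earlier results of these data known. The pipeline was tested on simulated data. Alternatives were DESeq2 1.42.0, other scaling, filters and thresholds, a covariate, 2-group fits and leave-one-out. The fit without the 3 libraries with fewer genes was added after the data were seen.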

Additional observations from a re-analysis of the deposited data

Results flagged for a closer look

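No member passed the test between IDPN-7wk and IDPN-3wk. Of the pathway genes named for their adjusted p at 7 weeks or for a profile near that of a member, 9 differed between the 2 times of exposure in that direct test (edgeR, adjusted p under 0.05, fold change above 1.5), and all were higher at 7 weeks. The log2 fold changes from 3 to 7 weeks were 0.99 for Eif2ak2, 2.28 for Irf7, 1.43 for Stat2, 1.56 for Ifi27, 1.28 for Ifitm3, 2.20 for Rtp4, 1.10 for B2m, 2.53 for Rsad2 and 1.17 for Ifi44. The genes were named by values that include the same IDPN-7wk libraries, so their higher level at 7 weeks was partly fixed by that choice. Of all tested genes, 0.348% were called higher in this comparison. The number of named genes looked at is not given here, so the 9 cannot be read as a share beside it. The comparison does not use the controls, but it is not independent of the choice of genes. Of the 3 IDPN-3wk libraries, 2 belong to the set with fewer genes.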

How the results depend on the processing

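No member was called at 3 weeks under any alternative. At 7 weeks 5 were called, and 5 or 6 with DESeq2, RLE scaling, other filters, only the 2 groups or no fold threshold. There were 3 with the set of libraries with fewer genes as covariate and 3 at a fold change above 2. Calls over all genes at 7 weeks shifted too, from 796 in the main fit to 1392 with DESeq2 and 1249 with only the 2 groups. They were 908 with at least 10 counts in every library, 819 with no filter, 797 with RLE scaling and 741 with the covariate. Leaving out single libraries gave 0 to 5 calls at 7 weeks, with 0 without IDPN-7wk replicate 1, 2 without control replicate 1, control replicate 2 or IDPN-7wk replicate 3, and 3 without control replicate 3 or IDPN-7wk replicate 2. Between 7 and 3 weeks the count of 0 became 4 with DESeq2, 2 with no filter and 2 with at least 10 counts in every library, and 0 to 2 in leave-one-out fits. With DESeq2, added after the data were seen for the gene lists, calls in the 4 sensing pathway lists went from 0 to 2 at 3 weeks and from 2 to 10 between 7 and 3 weeks. Calls of interferon-stimulated genes went from 1 to 6 and from 17 to 27. Over all genes, calls went from 256 to 826 at 3 weeks and from 75 to 585 between 7 and 3 weeks. The cause of these shifts was not tested, and the leave-one-out fits also have fewer samples.

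Of 432 member values under alternatives, 384 kept direction and side of the threshold, 20 lost and 14 gained a call, and 14 changed sign, all of uncalled values. With the 3 libraries with fewer genes left out, the log2 fold changes at 3 weeks became 0.052 for Dhx58, -0.26 for Tmem173, 0.12 for Trex1 and 0.029 for Adar. Trex1 became 0.065 at 7 weeks and -0.056 between 7 and 3 weeks. Leave-one-out values crossed 0 at 3 weeks for Dhx58 (-0.53 to 0.31), Tmem173 (-0.077 to 0.72) and Adar (-0.35 to 0.043), at 7 weeks for Trex1 (-0.18 to 0.15), and between 7 and 3 weeks for Mavs (-0.17 to 0.0071).

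No paired analysis was possible because the labels number no replicates. The sample titles share 1 number of unstated meaning between 1 IDPN-3wk and 1 IDPN-7wk rat, which is too few for a block.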
